A study of Homo sapiens with 8 samples.

Results

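The 35 genes described here encode proteins of homologous recombination, of the Fanconi anaemia pathway and of mismatch repair, and they were taken by name from a table of 16295 genes. All 35 were listed and all 35 passed the filter on low reads, which left 14164 genes for testing. They were followed in MM1.S, an established human multiple myeloma cell line of plasma cell type, in RNA-seq libraries of 4 groups with 2 libraries each. One group received DMSO, the solvent, and the other 3 received MS177, MS177N1 or C24, each at 0.5 uM, and all 8 libraries were made after 24 h. The study title names a degrader of EZH2, the catalytic subunit of PRC2, which methylates histone H3. The labels give the compounds by these names only. As background, MS177 is that degrader, C24 an inhibitor of the enzyme and MS177N1 a control analogue of MS177.

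Homologous recombination repairs a double-strand break by copying the sister chromatid: the broken ends are resected to single strands, BRCA2 prepares them for pairing, RAD51C, RAD51D, XRCC2, XRCC3 and RAD54L help them invade the intact copy, and the BLM complex takes the joined strands apart. The Fanconi pathway acts on crosslinks between the strands, where a core complex attaches ubiquitin to the FANCD2 and FANCI pair and nucleases then unhook the lesion. Mismatch repair corrects base pairing errors left by replication, with MSH6 in the complex that recognises them and PMS2 in the complex that cuts the new strand. The kinases ATM and ATR, with CHEK2 and CHEK1 below them, signal breaks and stalled forks. Many of these genes are known to be transcribed mainly in S phase, often through E2F sites near their start.

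The promoter stretches of 5 genes are shown first because an E2F motif was found both in genes that fell with MS177 and in genes that were not called. Each runs from 100 bases before the annotated start to 30 bases from it, 5′ to 3′ on the strand of the gene, as RefSeq gives it for GRCh38.p14. Capitals mark a match to TTTCCCGC, TTTGGCGC or TTTCGCGC on either strand. XRCC2 (chr7:152676112-152676241, minus strand) and MSH6 (chr2:47783045-47783174, plus strand) hold a match and fell in MS177. EXO1 (chr1:241848104-241848233, plus strand) and FANCD2 (chr3:10026337-10026466, plus strand) hold a match and were not called, while CHEK2 (chr22:28741791-28741920, minus strand), the member with the largest fall, holds none in its window.
XRCC2: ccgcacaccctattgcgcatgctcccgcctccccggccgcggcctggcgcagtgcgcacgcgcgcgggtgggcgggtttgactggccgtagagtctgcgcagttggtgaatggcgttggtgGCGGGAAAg
MSH6: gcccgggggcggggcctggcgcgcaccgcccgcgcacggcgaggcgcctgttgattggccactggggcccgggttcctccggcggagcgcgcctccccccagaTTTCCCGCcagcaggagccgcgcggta
EXO1: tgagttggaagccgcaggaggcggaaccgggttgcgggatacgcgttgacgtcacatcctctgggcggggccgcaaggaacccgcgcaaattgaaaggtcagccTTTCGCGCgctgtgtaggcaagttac
FANCD2: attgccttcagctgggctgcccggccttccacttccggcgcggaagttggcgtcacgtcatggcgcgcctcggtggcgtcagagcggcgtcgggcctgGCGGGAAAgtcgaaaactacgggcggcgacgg
CHEK2: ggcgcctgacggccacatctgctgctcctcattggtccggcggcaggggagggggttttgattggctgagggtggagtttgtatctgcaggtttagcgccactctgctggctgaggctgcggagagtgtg

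Each library held between 20000665 and 26619099 reads in the genes of the table. Values below are normalized reads, the reads of a gene divided by the size factor of its library, and differences are on the scale of log2(normalized reads + 1). A gene was called when the limma p, adjusted by Benjamini-Hochberg over the 14164 genes of a comparison, was under 0.05. Replicates differed beyond counting noise in each group. Chi-square over degrees of freedom was higher for MS177 (8.99) and DMSO (6.75) than for C24 (3.26) and MS177N1 (2.58). The fit took 1 variance per gene over all 4 groups, so errors for MS177 against DMSO also rested on the less noisy groups. With only MS177 and DMSO fitted, 3649 genes were called lower and 3759 higher, beside 4110 and 4097 in the fit of all groups. BRCA1, RMI2 and BRCA2 then lost their calls. Nothing in the labels states that the 2 libraries of a group came from different cultures. The p-values therefore speak of the spread among these libraries, which may be technical. The plasma cell markers were all 10 present, whereas the T and NK cell list, with 4 of 8 markers listed, summed to 75.8 to 110 normalized reads per library. The stromal and epithelial list, with 7 markers listed, summed to 166 to 256, and 3 of the 7 were under 10 in every library. The monocyte list, with 3 of 8 listed, summed to 9.44 to 29.1 in the 6 libraries without MS177 and to 54.2 and 67.5 with it, against 29305 and 31189 for the 35 repair genes in those libraries. In these bulk samples, fewer cells of a type and less RNA per cell cannot be told apart.

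In MS177 against DMSO, 21 of the 35 genes fell, 1 rose and 13 were not called. Over all genes tested in that comparison 29.0% were called lower and 28.9% higher. The median log2 difference was -0.33 over the 35 genes and 0.00 over all genes tested, and the members ranged from -1.28 for CHEK2 to 0.39 for BRCA2. The falls were mostly small: CHEK2 alone fell by at least 2-fold among the members, and 4.56% of all genes tested fell that far. Both MS177 libraries lay below all 6 other libraries in 21 members, and such a gap was seen in 31.7% of all genes tested. Both lay above all 6 others in 2 members, BRCA2 and PALB2, against 33.2% of all genes. The first DMSO library was below the second in 28 of 35 members, and the first MS177 library was below the second in 24. The median distance between the DMSO libraries, in either direction, was 0.12 over all 35 members.

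**Figure D1:**
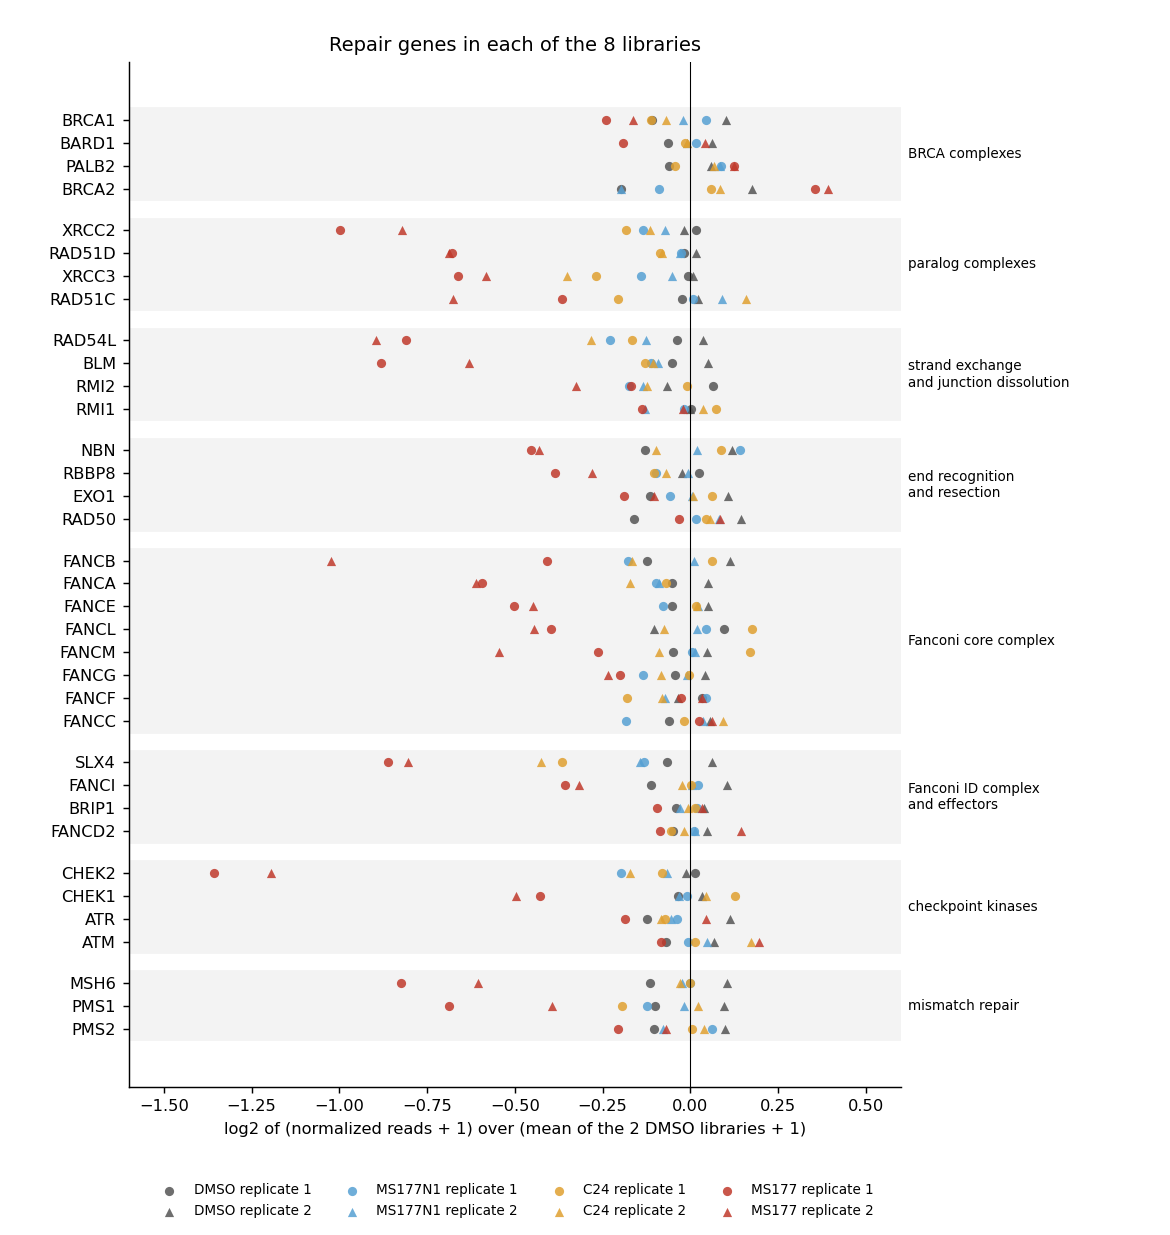
Each point is 1 library, placed by the log2 of its normalized reads plus 1 over the DMSO mean plus 1, with members grouped by role. The 2 MS177 libraries (red) lie left of all 6 others in 21 of 35 members and right of them in BRCA2 and PALB2. The points of MS177N1 (blue) and C24 (yellow) lie between those of DMSO (grey) in some members, such as MSH6 and FANCI. In others, such as CHEK2 and BLM, all of them lie left of both DMSO points.

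The BRCA complexes had the median nearest to 0 among the role groups. BRCA2, a mediator of recombination that acts on resected DNA, was the only member called higher. It had 182 and 236 normalized reads in DMSO, 196.2 and 182 in MS177N1, 217 and 221 in C24, and 267 and 274 in MS177. The 2 MS177 libraries were the highest of the 8, but the DMSO libraries were themselves 0.37 apart on the log2 scale. The difference from DMSO was 0.39 ± 0.14 (SE; adjusted p = 0.0298), and the call was lost without the first DMSO library (0.20, adjusted p = 0.292) and without either MS177 library (0.40, adjusted p = 0.0594 without the first, and 0.37, adjusted p = 0.0898 without the second).

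BRCA1, the ubiquitin ligase that directs broken ends to recombination, stood at 1405 and 1624 normalized reads in DMSO, 1563 and 1493 in MS177N1, 1401 and 1443 in C24, and 1283 and 1352 in MS177. Both MS177 libraries were below all others, by little. The fall of 0.20 ± 0.07 (adjusted p = 0.0307) was lost without the second DMSO library (-0.09, adjusted p = 0.336), without the first MS177 library (-0.16, adjusted p = 0.107) and without either MS177N1 library (adjusted p = 0.0510 and 0.0508). BARD1, the partner of BRCA1 in the ligase, differed by -0.07 (95% interval -0.24 to 0.09) and was not called, though it was without the second MS177 library (-0.19, adjusted p = 0.0384). PALB2, which bridges BRCA1 and BRCA2, differed by 0.13 (interval -0.07 to 0.32). Across the 4 genes the median was 0.03, and in MS177 against C24 0 of the 4 were called by limma.

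RAD51C, RAD51D, XRCC2 and XRCC3, which work together in paralog complexes, all 4 fell, with a median of -0.65. XRCC2, which joins RAD51D in one of these complexes, had 659 and 644 normalized reads in DMSO, 594 and 619 in MS177N1, 574 and 602 in C24, and 326 and 368 in MS177. RAD51D had 1196 and 1226 in DMSO, 1190 and 1186 in MS177N1, 1140 and 1146 in C24, and 755 and 752 in MS177. In both genes the MS177 libraries stood far below a narrow band formed by the other 6. XRCC2 was 1.88-fold lower than in DMSO (log2 -0.91 ± 0.09, adjusted p = 4.58e-07) and RAD51D 1.61-fold lower (-0.68 ± 0.07, adjusted p = 3.12e-07). Set against MS177N1 and C24, XRCC2 differed by -0.81 and -0.76 and RAD51D by -0.66 and -0.60, each called.

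XRCC3, which pairs with RAD51C, differed by -0.62 ± 0.10 (adjusted p = 7.71e-05) and RAD51C, found in both paralog complexes, by -0.52 ± 0.13 (adjusted p = 0.00221). In RAD51C the MS177 libraries, at 398 and 320, were below the lowest other library, at 444, and also lay 0.31 apart from each other on the log2 scale.

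Among the genes of strand exchange and junction dissolution, 3 of 4 fell. RAD54L, the motor that drives strand invasion, had 759 and 800 normalized reads in DMSO, 665 and 715 in MS177N1, 694 and 640 in C24, and 445 and 419 in MS177. BLM, the helicase mutated in Bloom syndrome, had 856 and 921 in DMSO, 823 and 834 in MS177N1, 812 and 825 in C24, and 482 and 573 in MS177. Neither gene overlapped between MS177 and the other groups. RAD54L was 1.80-fold lower (-0.85 ± 0.09, adjusted p = 4.93e-07) and BLM 1.69-fold lower (-0.76 ± 0.09, adjusted p = 2.51e-06) than in DMSO.

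The 2 accessory subunits of the BLM complex moved less. RMI2 differed by -0.24 ± 0.08 (adjusted p = 0.0208), with the first MS177 library inside the range of the other groups, and its call was lost without the first DMSO library (-0.18, adjusted p = 0.156) or the second MS177 library (-0.17, adjusted p = 0.146). RMI1 differed by -0.08 (interval -0.24 to 0.08) and was not called. Against MS177N1 and C24 neither of these subunits was called. TOP3A, the topoisomerase they bind, is outside the set and was looked up after its values were seen: it differed by -0.44 (adjusted p = 6.50e-05).

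End recognition and resection divided evenly, with 2 genes lower and 2 not called. NBN, the subunit of the MRE11 complex that brings ATM to breaks, had 861 and 1022 normalized reads in DMSO, 1039 and 954 in MS177N1, 1000 and 879 in C24, and 687 and 698 in MS177. RBBP8, also called CtIP, starts resection with that complex and had 2366 and 2287 in DMSO, 2174 and 2315 in MS177N1, 2167 and 2220 in C24, and 1780 and 1917 in MS177. Both genes separated MS177 from every other library. NBN was 1.35-fold lower (-0.44 ± 0.09, adjusted p = 0.000755) and RBBP8 1.26-fold lower (-0.33 ± 0.06, adjusted p = 0.000196).

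RAD50, the scaffold of the same complex as NBN, differed by 0.03 (interval -0.14 to 0.21), so a fall of the size seen in NBN lies outside its interval. MRE11, the nuclease subunit, which is not one of the 35, differed by -0.15 (adjusted p = 0.148). EXO1, the nuclease of long-range resection and of mismatch excision, differed by -0.14 (adjusted p = 0.112). It was called against DMSO without the first DMSO library (-0.25, adjusted p = 0.0138) or with the trend over length and GC content removed (-0.17, adjusted p = 0.0241). Against C24 EXO1 was called with all libraries (-0.18, adjusted p = 0.0463). That call was lost without the first MS177 library (adjusted p = 0.158), without the first or the second MS177N1 library (0.0721 and 0.0723) and without the first or the second C24 library (0.213 and 0.0973). It was also lost with total-read scaling (adjusted p = 0.292), quantile normalization (0.0538), no filter on low reads (0.0520), no trend or robust option (0.143) and adjustment over all 6 comparisons (0.0892).

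Of the 8 Fanconi core genes 5 fell, with a median of -0.41 over the 8. FANCA, the gene most often mutated in Fanconi anaemia, had 1028 and 1106 normalized reads in DMSO, 997 and 1003 in MS177N1, 1017 and 947 in C24, and 707 and 698 in MS177. FANCE, the subunit that touches FANCD2, had 497 and 535 in DMSO, 489 and 524 in MS177N1, 522 and 523 in C24, and 364 and 378 in MS177. The replicates of MS177 were close to each other in both genes and clear of the other 6 libraries. FANCA was 1.52-fold lower (-0.60 ± 0.07, adjusted p = 4.13e-06) and FANCE 1.39-fold lower (-0.47 ± 0.09, adjusted p = 0.000383).

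FANCB, an X-linked subunit that binds the ligase, was the member with the fewest reads, with a DMSO mean of 106 ± 12.4 (SD, n = 2) and 79.3 and 51.4 in the MS177 libraries. Its difference of -0.71 ± 0.23 (adjusted p = 0.0139) carried the widest error of the set. Without the second MS177 library it was -0.40 (adjusted p = 0.177), and without the second DMSO library -0.59 (adjusted p = 0.0950). FANCL, the ubiquitin ligase of the complex, differed by -0.42 ± 0.13 (adjusted p = 0.0114), which was lost without the first DMSO library (-0.32, adjusted p = 0.101). FANCG, which holds FANCA in place, differed by -0.22 ± 0.07 (adjusted p = 0.0128), lost without the second DMSO library (-0.17, adjusted p = 0.0955). FANCM, the translocase that anchors the complex, had both MS177 libraries, at 125 and 103, below the lowest other library, at 141.6. It just missed the threshold against DMSO (-0.40 ± 0.17, adjusted p = 0.0510). It was called there in 6 of 22 alternative settings, and without the first MS177 library the difference was -0.54. Against MS177N1 (-0.41) and C24 (-0.44) FANCM was called, and both calls were lost in some alternatives. FANCC, a subunit that sits with FANCE, and FANCF, an adaptor of the complex, at 0.04 and 0.00, had intervals of -0.18 to 0.27 and -0.17 to 0.17.

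In the FANCD2 and FANCI pair and the effectors, 2 of 4 genes fell. SLX4, the scaffold that gathers the nucleases that cut crosslinks and joined strands, had 583 and 637 normalized reads in DMSO, 557 and 553 in MS177N1, 473 and 455 in C24, and 335 and 349 in MS177. FANCI, the partner that is clamped on DNA with FANCD2, had 3454 and 4010 in DMSO, 3793 and 3746 in MS177N1, 3734 and 3672 in C24, and 2915 and 2997 in MS177. SLX4 stepped down from DMSO through MS177N1 and C24 to MS177 without overlap, although neither MS177N1 nor C24 was called against DMSO. In FANCI the groups other than MS177 overlapped. SLX4 was 1.78-fold lower in MS177 than in DMSO (-0.83 ± 0.09, adjusted p = 1.23e-06), and FANCI 1.26-fold lower (-0.33 ± 0.06, adjusted p = 0.000259).

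FANCD2, the partner of FANCI, differed by 0.03 (interval -0.15 to 0.21), and BRIP1, the helicase also called FANCJ, by -0.03 (interval -0.20 to 0.14). Neither was called in any comparison. FANCD2 has near-identical copies elsewhere in the genome, so its reads could be split or shared in a way that depends on the counting.

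The checkpoint kinases divided by tier. CHEK2, which ATM activates at breaks, had 666 and 655 normalized reads in DMSO, 576 and 631 in MS177N1, 624 and 586 in C24, and 257 and 288 in MS177. CHEK1, which ATR activates at stalled forks, had 1936 and 2032 in DMSO, 1971 and 1942 in MS177N1, 2167 and 2048 in C24, and 1473 and 1405 in MS177. Both kinases had their 2 lowest libraries in MS177, and the gap was widest for CHEK2, where no other library was below 576. CHEK2 was 2.42-fold lower than in DMSO (-1.28 ± 0.10, adjusted p = 1.53e-08), 2.21-fold lower than in MS177N1 (-1.14) and 2.22-fold lower than in C24 (-1.15). CHEK1 differed from DMSO by -0.46 ± 0.06 (adjusted p = 7.52e-06), from MS177N1 by -0.44 and from C24 by -0.55.

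The upstream kinases were not called in any comparison with the settings given above. ATM differed by 0.06 (interval -0.15 to 0.26) and ATR by -0.07 (interval -0.25 to 0.12). With the trend over length and GC content removed, ATR was called lower against DMSO (-0.18, adjusted p = 0.0198) and ATM against C24 (-0.18, adjusted p = 0.0391). CHEK2, like FANCD2 and PMS2, has near-identical copies in the genome, and its reads are uncertain to that extent.

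In mismatch repair, 2 of the 3 members fell. MSH6 had 4762 and 5541 normalized reads in DMSO, 5153 and 5068 in MS177N1, 5146 and 5052 in C24, and 2908 and 3389 in MS177. PMS1, a homologue of PMS2 whose own role is less clear, had 466 and 534 in DMSO, 458 and 494 in MS177N1, 436 and 508 in C24, and 310 and 380 in MS177. In both genes the groups other than MS177 overlapped one another and none reached down to MS177. MSH6 was 1.64-fold lower (-0.71 ± 0.08, adjusted p = 3.73e-06) and PMS1 1.45-fold lower (-0.54 ± 0.12, adjusted p = 0.00110).

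PMS2, the nicking subunit, differed by -0.13 (interval -0.34 to 0.07) and was not called. Its known copies make its reads uncertain.

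The compounds were then compared at their common dose and time. MS177 was set against MS177N1 and C24, and these comparisons share the MS177 libraries with the one against DMSO, as the 3 comparisons against DMSO share the DMSO libraries. Against MS177N1, 20 members were lower and 1, BRCA2, was higher (0.52, adjusted p = 0.00573), beside 28.6% and 28.8% of all genes tested. Without the second MS177N1 library BRCA2 was at 0.46 (adjusted p = 0.0524). Against C24, 21 members were lower and 0 higher by limma, beside 29.0% and 29.1% of all genes, and BRCA2 was at 0.30 (adjusted p = 0.0824). In either direction 22 members had an unadjusted p under 0.05, as did 8790 of the 14164 genes tested. Without the first C24 library the lower count against C24 was 15.

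In MS177N1 against DMSO, 0 of the 35 members were called by limma, beside 0.0353% of all genes called in either direction. An unadjusted p under 0.05 was reached by 0 members and by 718 of the 14164 genes tested. The member differences ran from -0.18 (RAD54L) to 0.09 (PALB2). The 95% intervals had a median width to each side of 0.19 and reached from -0.56 to 0.41, both at FANCB. A change of the size seen for CHEK2, XRCC2 or SLX4 with MS177 lies outside the interval of the same gene with MS177N1, whereas changes of about 0.2 could not be told from none.

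In C24 against DMSO, 0 members were called by limma, beside 0.0918% of all genes, and 3 reached an unadjusted p under 0.05. Of the 14164 genes tested, 762 reached that p. SLX4 differed by -0.39 (interval -0.59 to -0.20, adjusted p = 0.350), XRCC3 by -0.31 (adjusted p = 0.794) and RAD54L by -0.23 (adjusted p = 0.908). XRCC3 had 433 and 436 normalized reads in DMSO, 394 and 419 in MS177N1, 360 and 341 in C24, and 274 and 290 in MS177, so its C24 libraries also stood between those of MS177 and the rest. With p-values adjusted over all 6 comparisons together, SLX4 (adjusted p = 0.00336) and XRCC3 (adjusted p = 0.0321) were called in C24 against DMSO. That setting called 118 of the 14164 genes lower and 93 higher there, beside 10 and 3 with adjustment within the comparison. In C24 against MS177N1, 0 members were called by limma, beside 0.0141% of all genes called. An unadjusted p under 0.05 was reached by 1 member, SLX4 (-0.26), and by 634 of the 14164 genes tested. Differences there ran from -0.26 to 0.21 (BRCA2), with intervals from -0.45 to 0.52.

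**Figure D2:**
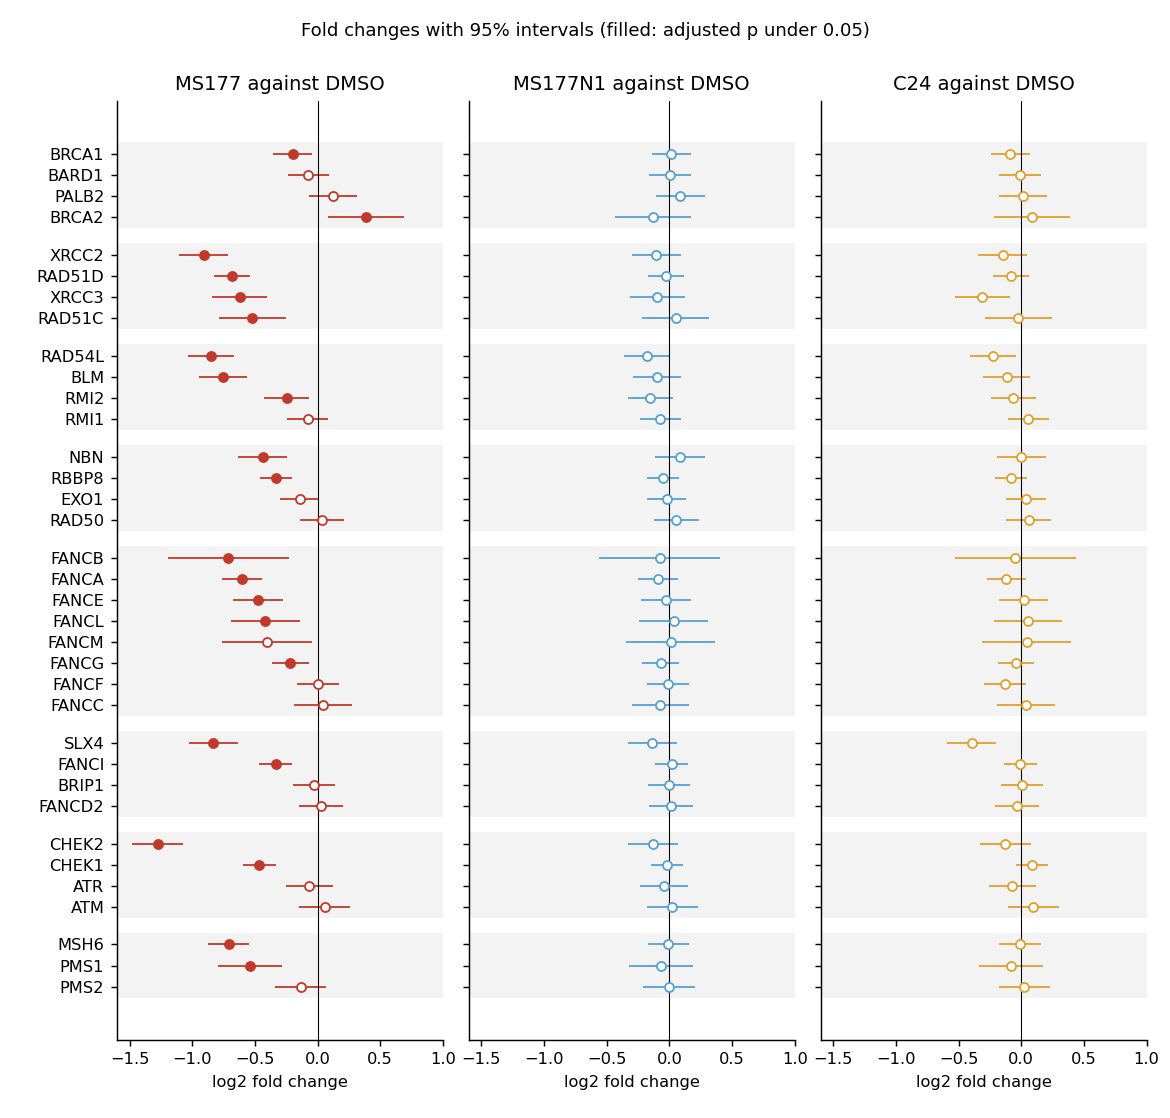
Log2 fold changes of the 35 members against DMSO, 1 panel per compound, with 95% intervals from limma and filled points for calls. MS177 has 21 filled points left of 0 and 1 right of it, while the panels of MS177N1 and C24 have no filled point and most intervals cross 0.

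Other genes of these pathways were then counted from lists that do not hold the 35 members. For these and the lists that follow, the share over all genes tested in MS177 against DMSO was 29.0% lower and 28.9% higher. In MS177 against DMSO, 16 of 40 other homologous recombination genes were lower and 6 higher, with a median of -0.16. RPA1, which coats single strands, fell (-0.61), as did SMC5 (-0.65), a subunit of the SMC5/6 complex, while the helicases RECQL5 (0.90) and HELQ (0.84) rose. Of 18 other Fanconi and crosslink repair genes 9 were lower and 3 higher, with a median of -0.25. UBE2T, the enzyme that hands ubiquitin to FANCL, fell by 1.01, and MAD2L2, of the translesion polymerase zeta, by 0.51. The nuclease FAN1 (0.71) and WDR48 (0.47), the partner of the deubiquitinase USP1, rose.

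Of 15 other mismatch repair genes 10 were lower and 1 higher, with a median of -0.42. The sliding clamp PCNA (-0.89) and the replicative polymerase subunit POLD1 (-0.92) fell and POLD4 (0.81) rose. Among 21 checkpoint and break signalling genes 12 were lower and 2 higher, with a median of -0.25. CDC25A (-0.87), the phosphatase that CHEK1 targets, and TIPIN (-1.30), of the fork protection complex, fell, and HUS1 (0.73) and CDC25C (0.39) rose.

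Neighbouring repair pathways had calls in both directions, as did all genes tested in MS177 against DMSO (29.0% lower and 28.9% higher). Of 15 non-homologous end joining genes 7 were lower and 4 higher, with a median of -0.15. XRCC6 (-0.44), the Ku70 subunit, and TDP1 (-0.56) fell, and the polymerase POLL (0.48) and the ligase LIG4 (0.52) rose. Of 36 base and nucleotide excision repair genes 14 were lower and 11 higher, with a median of -0.08. PARP1 (-0.87) and the uracil glycosylase UNG (-1.26) fell, while XRCC1 (0.66) and the damage sensor DDB2 (0.69) rose. The difference between pathways in these shares was not tested.

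Markers of the cell cycle moved in the same libraries, in which 29.0% of all genes tested were lower and 28.9% higher in MS177 against DMSO. In that comparison 8742 of the 14164 genes had an unadjusted p under 0.05 in either direction. Of 27 S-phase and G1/S marker genes 23 were lower in MS177 than in DMSO and 0 higher by limma, with 23 at an unadjusted p under 0.05 and a median of -0.57. UHRF1 (-1.51) and RRM2 (-0.92) had the lowest adjusted p. The list summed to 135791 and 138656 normalized reads in DMSO, 137088 and 137230 in MS177N1, 138962 and 138502 in C24, and 85344 and 86730 in MS177. Of 20 G2/M marker genes 16 were lower and 0 higher by limma, with 16 at an unadjusted p under 0.05 and a median of -0.39, and among them PLK1 (-0.65) and BIRC5 (-0.57). Their part in the lower repair genes was not tested.

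Plasma cell markers also fell in MS177 against DMSO, 7 of 10 with 1 higher, beside 29.0% and 28.9% of all genes tested. Mitochondrially encoded genes, taken as a sign of RNA quality, were lower in 10 of 13 with a median of -0.51. Their summed level was 467876 and 477724 normalized reads in DMSO and 329409 and 360006 in MS177. It was 370278 to 390846 in MS177N1 and 332045 to 339867 in C24. The part of RNA quality in the changes of the repair genes was not tested.

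**Figure D3:**
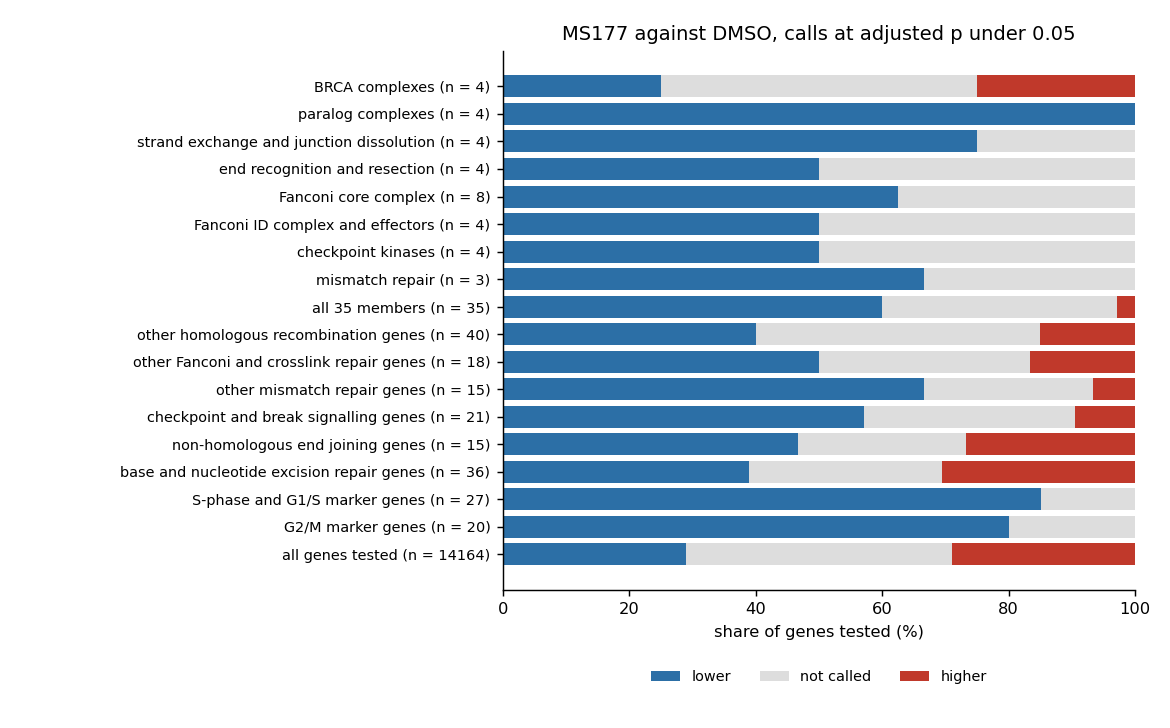
Share of the genes tested in each list that limma called lower (blue), higher (red) or neither (grey) in MS177 against DMSO, with the number of genes beside each name. All 4 of RAD51C, RAD51D, XRCC2 and XRCC3 are lower, the 35 members together have 21 lower and 1 higher, and the 14164 genes tested divide almost evenly between lower and higher.

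The RefSeq promoter windows, 250 bases before to 50 after the annotated start, were matched for 32 of the 35 genes. FANCI, NBN and RMI2 had no entry, and the BRCA1 window was left out because it starts 44844 bases from the nearest annotated coding transcript start. The limit was 500 bases, and it was applied to the members only, not to the windows of the other genes. RMI1, at 439 bases, was kept. Of the remaining 31 windows, 5 (16.1%) held 1 of the 3 E2F motifs on either strand, those of EXO1, MSH6, FANCD2, XRCC2 and FANCC. Of the windows of all genes tested 4.63% held one, as did 2.79% of all 27304 RefSeq windows. Of the 5 members with a motif 2 were lower (median -0.14), and of the 26 without one 15 were lower (median -0.41). Over the genes tested that had a window the order was the opposite, with 171 of 452 lower among those with a motif (37.8%, median -0.10) and 2889 of 9310 among those without one (31.0%, median 0.01). Neither difference was tested.

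In the stretches printed above, the match begins 3 bases after the start in MSH6, 4 in EXO1 and 21 in XRCC2, and lies across the start in FANCD2, with the first base of the gene counted as 0. FANCC holds 2 matches further upstream. The cell cycle homology region, TTTGAA or TTCGAA on either strand, was found in 3 of 31 windows (9.68%), those of FANCC, ATM and BRIP1, and 0 of these 3 were called by limma or reached an unadjusted p under 0.05. It was found in 11.2% of the windows of all genes tested, and 31.1% of the genes with it were lower beside 31.4% of those without it. A match is a run of letters and not a measured site.

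Several members start head to head with another gene, and these pairs were looked up after the values of the members were known. A divergent start within 1000 bases was found for 13 members, and for 8 of them the neighbour was among the genes tested. Of the 5 such members that fell, 0 had a neighbour called lower, 1 a neighbour called higher and 4 a neighbour not called. Among all genes tested 29.0% were called lower and 28.9% higher, so counts this small do not set the neighbours apart. CHEK2, at -1.28, starts 219 bases from HSCB, an iron-sulphur cluster chaperone, which differed by 0.10 ± 0.13 (adjusted p = 0.534). SLX4, at -0.83, starts 154 bases from DNASE1, at 0.22 ± 0.18. FANCB, at -0.71, starts 352 bases from MOSPD2, which rose by 0.39 ± 0.16 (adjusted p = 0.0485).

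XRCC3 is paired with ZFYVE21 (-0.02 ± 0.18) and PMS1 with ORMDL1 (-0.10 ± 0.08), and neither neighbour was called. The 3 members of such pairs that did not fall had neighbours that were called: AIMP2 beside PMS2 (-0.38, adjusted p = 0.000283) and DCTN5 beside PALB2 (-0.20, adjusted p = 0.0139) were lower, and NPAT beside ATM (0.26, adjusted p = 0.0124) was higher. The difference within a pair was not tested. Whether the counting used strand is not given in the sources used here.

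**Figure D4:**
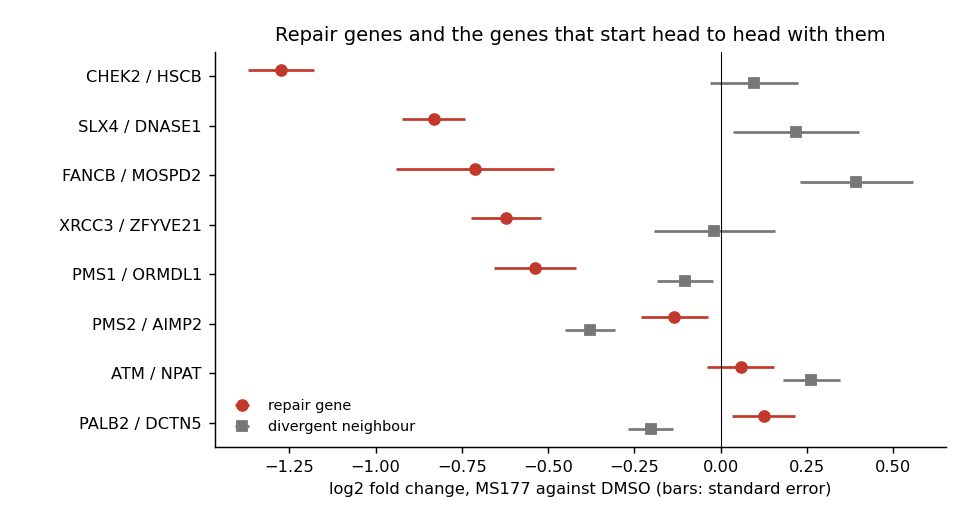
Log2 fold changes in MS177 against DMSO for 8 repair genes (red circles) and the genes that start head to head with them (grey squares), with standard errors from limma. The 5 repair genes that fell have neighbours between -0.10 and 0.39, and AIMP2 and DCTN5 lie below the repair genes they face.

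Calls were found among short and long and among GC-poor and GC-rich transcripts. Length and GC content were those of the longest annotated transcript of each gene, which need not be the one expressed here. Of the 18 members with the shorter transcripts (up to 4592 bases) 12 were lower, with a median of -0.38, and of the 17 with the longer ones 9, with a median of -0.33. Of the 18 with the lower GC content 10 were lower, and of the 17 with the higher GC content 11. The share over all genes tested in MS177 against DMSO was 29.0% lower. With the trend over length and GC content removed, BARD1, EXO1, FANCM and ATR were also called lower in that comparison. BRCA2 and RMI2 lost their calls in it.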

How the data were processed

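RNA of MM1.S cells in 4 groups of 2 libraries was measured by RNA-seq. Per the file headers, the authors deposited normalized log2 values per gene and library. The submitters' processing notes name STAR 2.4.2, Salmon 0.1.19, DESeq2 1.38.2 and the build hg19, without roles. The values follow a variance-stabilizing transformation whose minimum is 5.967655733, the value of 0 reads. This was inverted, and all 130360 values came out as whole reads within 0.01. Tested genes had 10 or more reads (scaled to the median library) in 2 libraries and 15 or more over all. Log2(normalized reads + 1) was fitted over all 8 libraries in R 4.3.3 with limma 3.58.1 and statmod 1.5.0, using a mean trend and robust variances, and p-values were adjusted by Benjamini-Hochberg within each of 6 comparisons. The procedure was tested on simulated data. The fit used recovered reads because the table holds log2 values and no counts. Values in every library are given for the 2 called members with the lowest adjusted p in each role group. They are also given for members called higher and for members called without MS177. Other lists name at most 2 called genes per direction, those with the lowest adjusted p. TOP3A and MRE11 were named outside this rule. Members and lists were chosen with earlier results of these data known. Alternatives covered scaling, pseudocount, filter, spread model, samples fitted, adjustment, replicate block, length and GC, and each library left out.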

Additional observations from a re-analysis of the deposited data

How the results depend on the processing

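Over 22 alternatives, 16 of the 21 members lower in MS177 against DMSO were called in each, and none of the 4620 member values reversed a called direction. The lower count was 18 to 24 against DMSO, 17 to 22 against MS177N1 and 15 to 24 against C24. Leaving out 1 library each gave 18 to 21, 17 to 20 and 15 to 21. BRCA1, RMI2, FANCB, FANCG and FANCL lost their calls against DMSO in some. The higher count against DMSO, BRCA2 alone, went to 0 with quantile normalization, without the trend and robust options, with only the groups compared, with adjustment over all 6 comparisons and with the length and GC trend removed, and was 0 to 1 with 1 library left out. The higher count against MS177N1 was 0 to 1 with 1 library left out. The higher count against C24 was 2 (BRCA2 and FANCF) with total-read scaling, and 0 to 1 with 1 library left out. With adjustment over all 6 comparisons, 2 members were lower in C24 against DMSO and 1 (SLX4) in C24 against MS177N1. Of the 14164 genes tested, 118 and 88 were lower in these comparisons with that adjustment. That adjustment pools comparisons with many and few small p-values; for the other changes the cause was not tested. Total-read scaling moved the median of all genes in MS177 against DMSO to 0.09. The titles give the groups shared replicate numbers, but deviations went together only between DMSO and MS177 (r = 0.38; other pairs -0.10 to 0.02), so the numbers were not taken as pairs; with the replicate block, 21 members were lower and 1 higher in MS177 against DMSO, and 210 of 210 member results kept their side of the threshold. With 2 libraries a group, differences under about 0.2 were often within the interval.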
